A study of Homo sapiens with 12 samples.

Results

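NF-κB is a family of transcription factors, and the 44 genes described here are its Rel subunits, the proteins that hold it back, components of tumor necrosis factor (TNF) receptor signaling, and cytokines, chemokines and other genes known to be switched on by it. The genes were taken from a list of symbols, chosen with earlier results of these data known. Of the 44, 43 matched a counted gene by name and SOD2 was not analysed here. All 43 passed the filter on low counts, out of 63677 genes counted and 21325 tested. RNA-seq was done in MDA-MB-468, SUM149PT and HCC38, which are 3 lines of basal-like breast cancer. Cells were transfected for 24 h at 50 nM either with LNA1 and LNA2 together, locked nucleic acid oligonucleotides against the nuclear lncRNA LINC01956 (knock-down), or with a non-targeting oligonucleotide (LNA NS), and the medium was changed after 6 h. Each line had 2 knock-down and 2 LNA NS libraries, 12 in all. Every library is thus from transfected cells, and the labels do not say whether replicates were cultured separately. The p-values therefore reflect the spread among these libraries, which may be technical.

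In resting cells, IκB proteins hold dimers of Rel subunits in the cytoplasm. A signal such as TNF or interleukin-1 leads to phosphorylation and loss of IκB, the dimers enter the nucleus, and they bind κB sites near their target genes. Some targets are inhibitors that end the response, such as IκBα and A20, and others are secreted cytokines that can start it again in neighboring cells. Constitutive NF-κB activity is known from basal-like breast cancer cells.

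Before the members, the target itself was checked. LINC01956 had 0.023 and 0.0235 CPM after knock-down, against 0.796 and 0.611 CPM with LNA NS in MDA-MB-468, where CPM is counts scaled to a common library total after TMM normalization. It had 0.576 and 0.416 CPM after knock-down, against 10.7 and 11.2 CPM with LNA NS in SUM149PT. In HCC38 it had 1.48 and 2.05 CPM after knock-down, against 14.6 and 15.1 CPM with LNA NS. The lncRNA was thus lower in every knock-down library than in every LNA NS library of its line, with edgeR adjusted p-values of 3.7e-06, 6.6e-09 and 3.5e-08 in this order of the lines. Gene counts ran between 32187835 and 56191152 per library. EPCAM, CDH1, KRT5 and EGFR, 4 of the 6 epithelial and basal markers examined, were expressed in all lines, whereas KRT14 and KRT17, keratins of basal cells, were below 1 CPM in the LNA NS libraries of HCC38. Some markers moved with the knock-down. EGFR had 2967 and 2634 CPM after knock-down, against 5056 and 6055 CPM with LNA NS in MDA-MB-468 and 176 and 154 CPM after knock-down, against 301 and 228 CPM with LNA NS in SUM149PT (edgeR adjusted p = 9.2e-05 and 0.0037). The mesenchymal marker VIM had 30.03 and 29.5 CPM after knock-down, against 15.01 and 13.1 CPM with LNA NS in MDA-MB-468 and 308 and 266 CPM after knock-down, against 159.5 and 175 CPM with LNA NS in SUM149PT (edgeR adjusted p = 1.7e-06 and 5.9e-05), and neither gene passed in HCC38. The 6 epithelial and basal markers summed to 5717 and 5379 CPM after knock-down, against 8331 and 9084 CPM with LNA NS in MDA-MB-468, to 2675 and 2556 against 3408 and 3262 CPM in SUM149PT, and to 938 and 871 against 962 and 989 CPM in HCC38. The MDA-MB-468 sum is mostly EGFR and KRT5, both lower after knock-down. EPCAM went up there, with 504 and 586 CPM after knock-down, against 383 and 394 CPM with LNA NS. So did KRT14, with 25.4 and 26.8 against 17.04 and 16.2 CPM. Of the other mesenchymal markers, FN1 stood at 40.6 and 34.8 against 38.1 and 38.8 CPM in MDA-MB-468. In SUM149PT it had 2354 and 2101 against 2053 and 1453 CPM, and in HCC38 893 and 665.5 against 468 and 683 CPM. ZEB1 was higher in MDA-MB-468 after knock-down but under 1 CPM. The luminal markers ESR1, PGR, GATA3 and FOXA1 did not move alike. ESR1 had 2.51 and 2.21 against 6.36 and 7.68 CPM in MDA-MB-468, where FOXA1 had 59.6 and 61.5 against 53.9 and 57.6 CPM. In SUM149PT, ESR1 had 1.30 and 0.77 against 2.865 and 2.28 CPM, and FOXA1 32.8 and 30.6 against 17.3 and 17.3 CPM. The part of these shifts in the members' values was not tested. Of 6 leukocyte markers, 5 were below 1 CPM in every group. The sixth, CD14, made up most of their summed level, which was 8.15 and 7.20 CPM in knock-down and 13.9 and 12.0 CPM in LNA NS libraries of MDA-MB-468, 4.43 and 4.46 against 7.58 and 6.39 CPM in SUM149PT, and 8.44 and 9.59 against 9.59 and 9.11 CPM in HCC38.

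The promoters of 4 members are shown because these genes rose after knock-down in all 3 lines and their promoters hold a match to the κB consensus, the site that Rel dimers bind. RefSeq windows reaching from 250 bases before to 50 bases after the annotated start were found for 35 of the 43 members. The κB consensus of 10 bases, searched on both strands, was present in 15 of these 35 windows, and in 5.91% of all 35114 promoter windows of the same length. The members were listed for a known link to NF-κB, so this share is not a result of the knock-down. Among the members that rose in all lines, 5 of the 12 with a window had a match, near the 15 of 35 over all members. Of these 5, the 4 with the smallest p on average over the lines are printed. NFKBIA is the one not printed. The sequences are from RefSeq (GRCh38.p14). Each was found once, unchanged, on its chromosome of GRCh37, and the coordinates are those of GRCh37. All 4 are on the plus strand, and capitals mark the κB matches.
TNFAIP3 promoter, chr6:138188146-138188445: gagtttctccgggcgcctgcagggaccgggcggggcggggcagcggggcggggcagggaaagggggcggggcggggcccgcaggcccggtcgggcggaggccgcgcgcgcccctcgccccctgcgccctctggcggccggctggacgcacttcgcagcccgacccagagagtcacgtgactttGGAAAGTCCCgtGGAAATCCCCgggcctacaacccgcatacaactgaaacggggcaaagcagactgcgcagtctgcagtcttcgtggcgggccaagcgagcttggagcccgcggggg
IL6 promoter, chr7:22766569-22766868: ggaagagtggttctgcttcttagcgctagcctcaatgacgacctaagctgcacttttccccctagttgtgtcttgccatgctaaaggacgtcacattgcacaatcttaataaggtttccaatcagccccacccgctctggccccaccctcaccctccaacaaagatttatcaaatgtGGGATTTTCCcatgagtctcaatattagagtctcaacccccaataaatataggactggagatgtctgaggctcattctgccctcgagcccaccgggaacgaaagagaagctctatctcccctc
BIRC3 promoter, chr11:102187965-102188264: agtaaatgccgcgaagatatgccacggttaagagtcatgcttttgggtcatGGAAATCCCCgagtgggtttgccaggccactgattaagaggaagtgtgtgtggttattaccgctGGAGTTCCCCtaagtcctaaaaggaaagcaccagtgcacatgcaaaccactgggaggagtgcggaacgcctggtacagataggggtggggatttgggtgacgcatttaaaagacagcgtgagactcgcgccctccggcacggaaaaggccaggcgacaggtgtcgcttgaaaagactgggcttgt
NFKBIZ promoter, chr3:101546584-101546883: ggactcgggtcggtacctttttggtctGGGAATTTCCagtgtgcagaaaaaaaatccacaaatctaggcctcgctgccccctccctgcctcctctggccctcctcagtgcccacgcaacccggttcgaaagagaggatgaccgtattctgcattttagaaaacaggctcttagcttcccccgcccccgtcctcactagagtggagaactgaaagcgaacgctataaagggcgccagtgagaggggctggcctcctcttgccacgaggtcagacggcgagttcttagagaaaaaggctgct
In the TNFAIP3 window the matches begin 67 and 55 bases before the start and read GGGACTTTCC and GGGGATTTCC on the minus strand. The IL6 match begins 73 bases before the start and reads GGGATTTTCC. BIRC3 has matches 199 and 135 bases before its start, both on the minus strand, and the one of NFKBIZ begins 223 bases before its start. A match is a description of the letters, and binding was not measured.

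After knock-down, more members rose than fell in every line. As the members were chosen with earlier results of these data known, their counts describe the list and are no independent test. In MDA-MB-468, 25 of the 43 rose and 5 fell at an adjusted p under 0.1 by the quasi-likelihood test of edgeR, adjusted after Benjamini-Hochberg over all genes tested, where 24.9% of all tested genes rose and 25.7% fell. In SUM149PT 26 members rose and 2 fell, against 20% and 18% of all tested genes. In HCC38 17 rose and 3 fell, against 15.5% and 18.4% of all tested genes. The median log2 fold change of the members was 0.59 for MDA-MB-468, 0.39 for SUM149PT and 0.27 for HCC38, where the median of all tested genes was 0.00, 0.027 and 0.0079. With the trend of the fold change on gene length removed, the member medians were 0.47, 0.32 and 0.15. Averaged over the lines, 29 members rose and 4 fell, against 28.4% and 26.5% of all tested genes. Larger changes were fewer. Among genes that passed with a change of more than 2-fold, 10 members rose in MDA-MB-468, 5 in SUM149PT, 2 in HCC38 and 5 on average, against 9.21%, 6.31%, 4.96% and 7.09% of all tested genes. No member passed edgeR's test with a fall of more than 2-fold, where 11%, 4.31%, 4.41% and 5.43% of all tested genes did. CCL2 had a log2 fold change of −1.44 ± 0.68 for MDA-MB-468 without passing (edgeR adjusted p = 0.1). In bulk RNA, more cells that express a gene and more RNA per cell cannot be told apart.

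Across the lines, 13 members rose in all 3, where 6.6% of all tested genes did. These were the subunits RELA and RELB, the inhibitors and IκB proteins TNFAIP3, NFKBIA, NFKBIZ, CYLD and ZC3H12A, the TNF receptor proteins BIRC3 and RIPK1, the cytokines CXCL8, IL6 and TNF, and ICAM1. CSF1 alone fell in all 3 lines, where 8.74% of all tested genes did. Leaving out single libraries gave between 10 and 13 members that rose in all lines. A block on replicate number gave 12, without CYLD.

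The change was then compared between the lines. It differed between lines for 25 of the 43 at an adjusted p under 0.1 in edgeR's F test of the 3 contrasts, where 32.4% of all tested genes did. Of these 25, the signed log2 fold change was highest in MDA-MB-468 for 12, in SUM149PT for 9 and in HCC38 for 4. With the sign kept, BCL3 is counted for HCC38 and TNIP1 for SUM149PT. Both passed only in MDA-MB-468, where they fell. All 6 of the cytokines among the 25 had their largest change in MDA-MB-468. That line also had the most calls over all tested genes, 24.9% risen and 25.7% fallen. SUM149PT had 20% and 18%, and HCC38 15.5% and 18.4%. The line with the highest value was not counted over all tested genes.

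The cytokines and chemokines were then set apart from the other members. Of the 14 cytokines and chemokines, 7 rose and 1 fell in MDA-MB-468, 4 rose and 2 fell in SUM149PT, and 3 rose and 1 fell in HCC38. Their risen counts in SUM149PT and HCC38 were near the share over all tested genes, 20% and 15.5%, while 24.9% of all tested genes rose in MDA-MB-468. Of the other 29 members, 18 rose and 4 fell in MDA-MB-468, 22 rose in SUM149PT, and 14 rose and 2 fell in HCC38. The cytokine median of the log2 fold change was 1.72 for MDA-MB-468, 0.046 for SUM149PT and 0.13 for HCC38. With groups at 0 counts set to a floor of 3 counts over the group, it was 1.54, 0.092 and 0.13. Genes where neither group was above this floor were then left out. For the other 29 the medians were 0.47, 0.46 and 0.27, or 0.50, 0.46 and 0.27 with the floor. The difference between these medians was not tested.

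**Figure D1:**
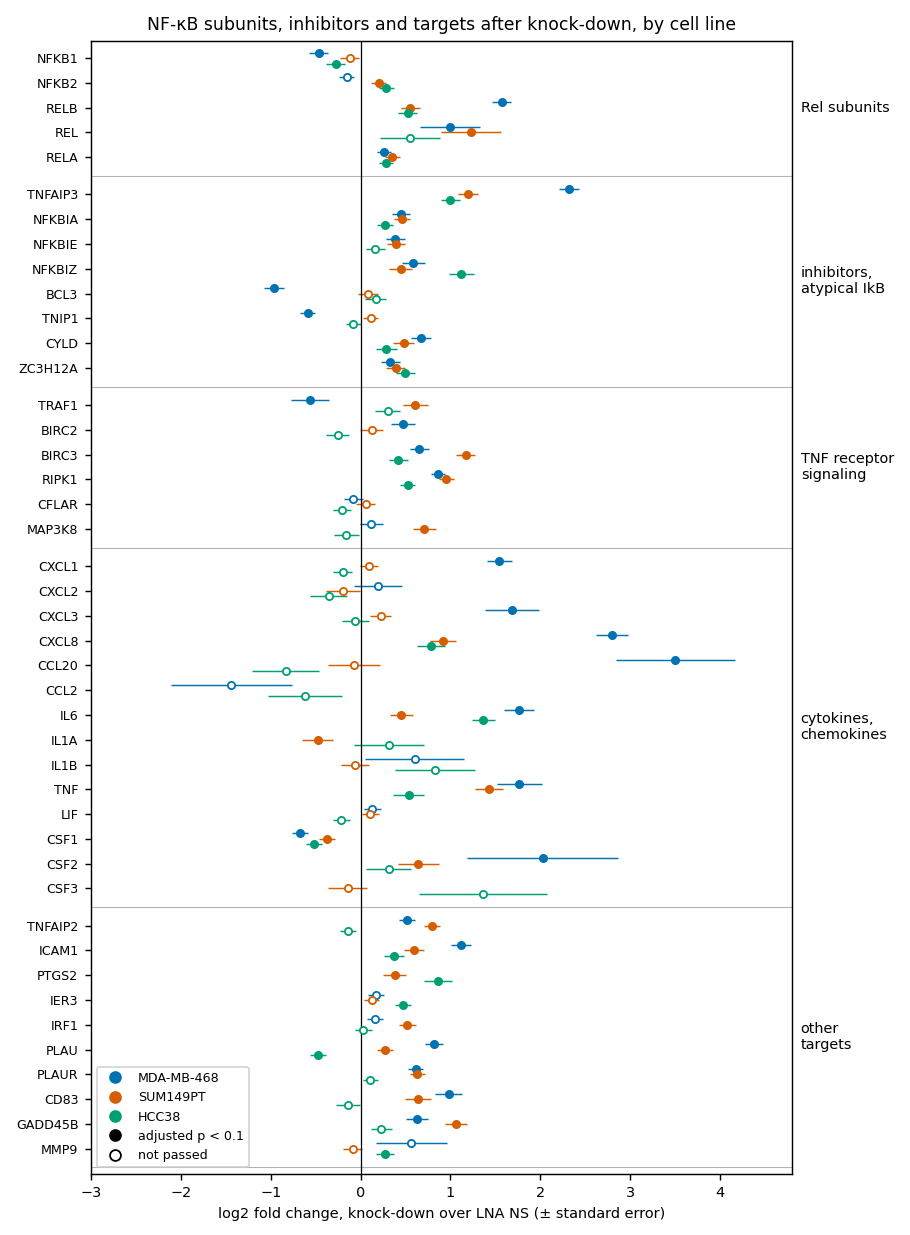
Log2 fold change of knock-down over LNA NS for the 43 members, grouped by role. Points show the 3 lines and bars the standard error of the fit, filled points passed an adjusted p under 0.1, and contrasts with a group at 0 counts are not drawn. The TNFAIP3 points lie at 2.32, 1.20 and 1.00, and the highest point that passed is CCL20 in MDA-MB-468 at 3.50.

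Of the 5 Rel subunits, 3 rose and 1 fell in MDA-MB-468, 4 rose in SUM149PT, and 3 rose and 1 fell in HCC38. Over all tested genes, 24.9%, 20% and 15.5% rose and 25.7%, 18% and 18.4% fell, in this order of the lines. RELB (chr19:45504719-45541450 of GRCh37, plus strand), the partner of p52 in the non-canonical branch of the pathway, had the largest change of the 5 subunits in MDA-MB-468. In MDA-MB-468, RELB stood at 89.03 and 100 CPM after knock-down, against 35.1 and 28.6 CPM with LNA NS. SUM149PT had 70.4 and 76.9 CPM after knock-down, against 50.05 and 50.4 CPM with LNA NS. In HCC38 the RELB levels were 87.9 and 92.7 CPM after knock-down, against 62.05 and 63.4 CPM with LNA NS. All knock-down libraries lay above all LNA NS libraries of their line, and in relative terms the distance was widest in MDA-MB-468. RELB log2 fold changes were 1.57 ± 0.11 for MDA-MB-468, 0.55 ± 0.11 for SUM149PT and 0.53 ± 0.10 for HCC38 (edgeR adjusted p = 1.8e-08, 0.00091 and 0.0015), and these differed between the lines (edgeR adjusted p = 0.00027). RELA (chr11:65421070-65430561, minus strand) encodes p65, the subunit that carries most of the transcriptional activity of the canonical dimer. In MDA-MB-468, RELA stood at 234 and 232 CPM after knock-down, against 189.6 and 199.7 CPM with LNA NS. SUM149PT had 189 and 199 CPM after knock-down, against 156 and 148 CPM with LNA NS. In HCC38 the RELA levels were 189.5 and 192 CPM after knock-down, against a mean of 157 ± 11.1 CPM with LNA NS (SD, n = 2). The rises were small and did not overlap with LNA NS in any line. RELA log2 fold changes were 0.26 ± 0.082 for MDA-MB-468, 0.35 ± 0.082 for SUM149PT and 0.28 ± 0.082 for HCC38 (edgeR adjusted p = 0.017, 0.0041 and 0.018). The RELA call in MDA-MB-468 was lost without MDA-MB-468 LNA NS replicate 1. The RELA call in HCC38 was lost without HCC38 LNA NS replicate 1.

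REL, NFKB2 and NFKB1 did not move alike in all lines. REL (chr2:61108626-61158747, plus strand) encodes c-Rel. In MDA-MB-468, REL stood at 15.8 and 15.7 CPM after knock-down, against 5.98 and 9.81 CPM with LNA NS. SUM149PT had 24.3 and 20.8 CPM after knock-down, against 12.7 and 6.48 CPM with LNA NS. In HCC38 the REL levels were 14.1 and 8.51 CPM after knock-down, against 4.98 and 10.5 CPM with LNA NS. In several groups the replicates lay far apart for REL, and in HCC38 the groups overlapped. REL log2 fold changes were 0.99 ± 0.34 for MDA-MB-468, 1.23 ± 0.33 for SUM149PT and 0.55 ± 0.33 for HCC38 (edgeR adjusted p = 0.025, 0.01 and 0.25). The REL call in MDA-MB-468 was lost without MDA-MB-468 LNA NS replicate 1. The REL call in SUM149PT was lost without SUM149PT LNA NS replicate 2. REL passed the test in HCC38 without HCC38 LNA NS replicate 2, and with no filter on low counts or a separate fit of each line. NFKB2 (chr10:104153867-104162281, plus strand) encodes p100, the precursor of p52 and itself an inhibitor. In MDA-MB-468, NFKB2 stood at 63.3 and 66.2 CPM after knock-down, against 71.1 and 72.7 CPM with LNA NS. SUM149PT had 207 and 227 CPM after knock-down, against 189 and 188 CPM with LNA NS. In HCC38 the NFKB2 levels were 145 and 154 CPM after knock-down, against 119 and 126 CPM with LNA NS. Knock-down libraries were above LNA NS in SUM149PT and HCC38 and below it in MDA-MB-468. NFKB2 log2 fold changes were −0.15 ± 0.084 for MDA-MB-468, 0.20 ± 0.083 for SUM149PT and 0.29 ± 0.083 for HCC38 (edgeR adjusted p = 0.16, 0.082 and 0.018), which differed between lines (edgeR adjusted p = 0.027). The NFKB2 call in SUM149PT was lost without MDA-MB-468 LNA NS replicates 1 or 2, MDA-MB-468 knock-down replicates 1 or 2, SUM149PT LNA NS replicates 1 or 2, SUM149PT knock-down replicate 2 or HCC38 knock-down replicates 1 or 2, and with DESeq2 size factors, no filter on low counts, DESeq2 or a separate fit of each line. The NFKB2 call in HCC38 was lost without HCC38 LNA NS replicate 1 or HCC38 knock-down replicate 2. The NFKB2 call on average over the lines was lost without MDA-MB-468 LNA NS replicates 1 or 2, MDA-MB-468 knock-down replicate 2, SUM149PT LNA NS replicates 1 or 2, SUM149PT knock-down replicate 2, HCC38 LNA NS replicate 1 or HCC38 knock-down replicates 1 or 2, and with no filter on low counts. The NFKB2 call for the difference between lines was lost without MDA-MB-468 LNA NS replicate 2. With a block on replicate number, the NFKB2 calls in SUM149PT and on average were lost as well.

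NFKB1 (chr4:103422487-103538459, plus strand), which encodes p105 and its product p50, was the subunit that fell. In MDA-MB-468, NFKB1 stood at 35.2 and 32.1 CPM after knock-down, against 45.4 and 47.7 CPM with LNA NS. SUM149PT had 70.97 and 64.6 CPM after knock-down, against 77.3 and 70 CPM with LNA NS. In HCC38 the NFKB1 levels were 61.1 and 50.8 CPM after knock-down, against 66.8 and 69.03 CPM with LNA NS. Knock-down libraries were the lower ones in MDA-MB-468 and HCC38, and in SUM149PT the groups overlapped. NFKB1 log2 fold changes were −0.47 ± 0.11 for MDA-MB-468, −0.12 ± 0.11 for SUM149PT and −0.28 ± 0.11 for HCC38 (edgeR adjusted p = 0.0023, 0.44 and 0.066). A difference between lines was not shown (edgeR adjusted p = 0.22). The NFKB1 call in HCC38 was lost without MDA-MB-468 LNA NS replicates 1 or 2, HCC38 LNA NS replicates 1 or 2 or HCC38 knock-down replicate 2, and with upper-quartile normalization, a filter at 1 CPM in 2 libraries or a separate fit of each line.

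Of the 8 feedback inhibitors and IκB proteins, 6 rose and 2 fell in MDA-MB-468, 6 rose in SUM149PT and 5 rose in HCC38. The shares of all tested genes in these lines were 24.9%, 20% and 15.5% risen and 25.7%, 18% and 18.4% fallen. TNFAIP3 (chr6:138188351-138204451, plus strand), the ubiquitin-editing enzyme A20 that shuts off signaling from the TNF receptor, had the largest change of the 8 in MDA-MB-468 and SUM149PT. In MDA-MB-468, TNFAIP3 stood at 48.4 and 55.7 CPM after knock-down, against 10.4 and 10.4 CPM with LNA NS. SUM149PT had 128 and 134 CPM after knock-down, against 61.1 and 53.1 CPM with LNA NS. In HCC38 the TNFAIP3 levels were 62.4 and 59.99 CPM after knock-down, against 28.4 and 32.9 CPM with LNA NS. The groups were far apart in each line. With LNA NS, the 2 libraries of MDA-MB-468 were the lowest of all for TNFAIP3, and after knock-down they lay between the LNA NS and the knock-down libraries of HCC38. TNFAIP3 log2 fold changes were 2.32 ± 0.12 for MDA-MB-468, 1.20 ± 0.11 for SUM149PT and 1.00 ± 0.11 for HCC38 (edgeR adjusted p = 9.7e-10, 9.4e-07 and 6.4e-06), and they differed between lines (edgeR adjusted p = 9.3e-05). The promoter of this gene, printed above, holds 2 adjacent κB matches.

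**Figure D2:**
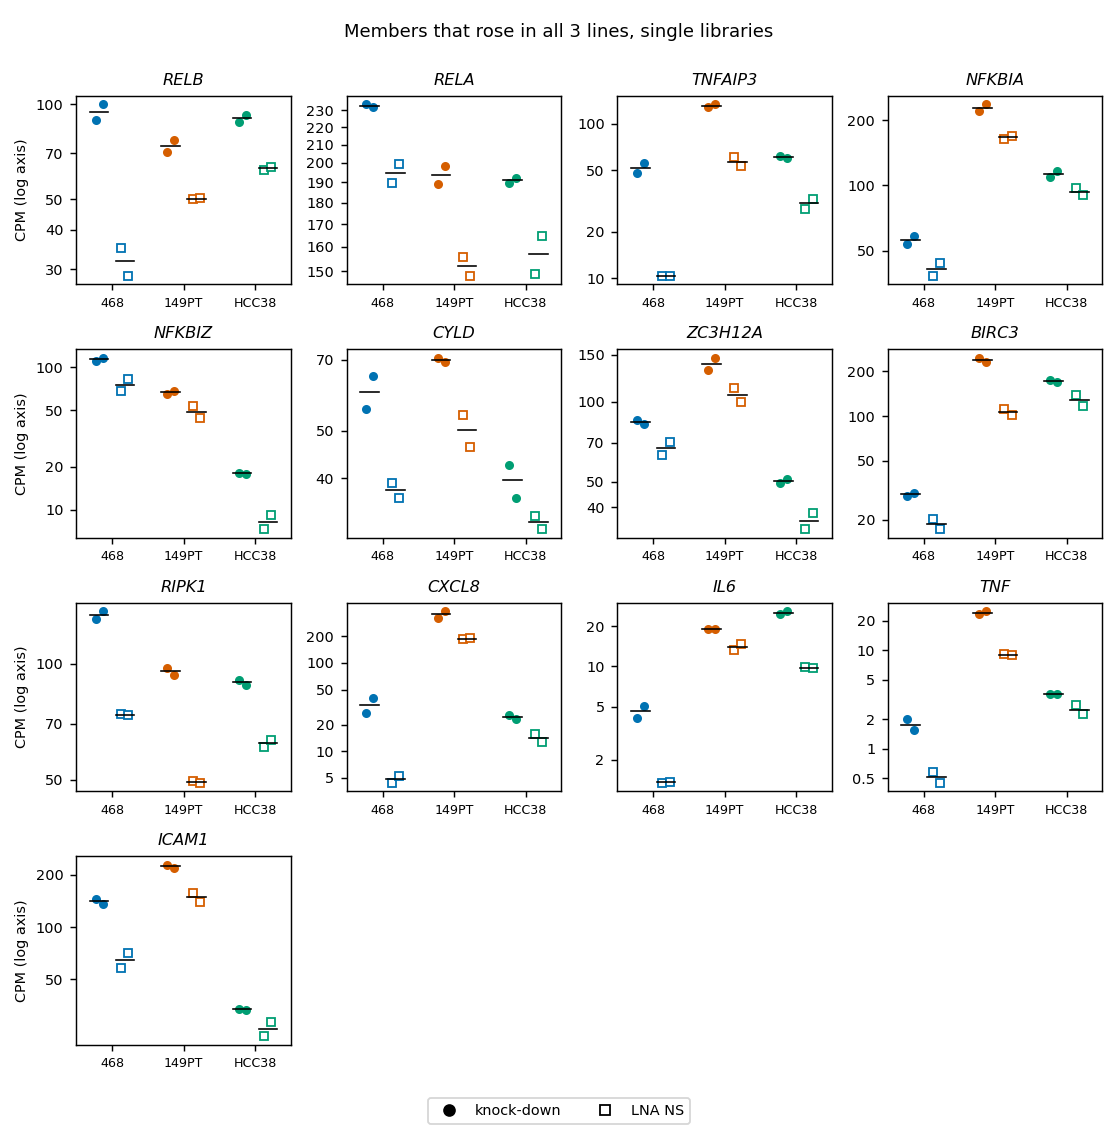
CPM of the 13 members that rose in all 3 lines, on a log axis, with knock-down libraries as filled circles left of the LNA NS libraries as open squares in each line. The bars are the means of 2 libraries, and for TNFAIP3 the knock-down means lie above those with LNA NS by log2 fold changes of 2.32, 1.20 and 1.00.

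Of the IκB proteins, NFKBIA rose in all lines. It (chr14:35870285-35873955, minus strand) encodes IκBα, the inhibitor that captures nuclear RelA and returns it to the cytoplasm. In MDA-MB-468, NFKBIA stood at 53.6 and 58.4 CPM after knock-down, against 38.2 and 43.7 CPM with LNA NS. SUM149PT had 222 and 237 CPM after knock-down, against 164 and 169.8 CPM with LNA NS. In HCC38 the NFKBIA levels were 109 and 117 CPM after knock-down, against 97.1 and 90.04 CPM with LNA NS. In each line the knock-down libraries were the higher ones. NFKBIA log2 fold changes were 0.45 ± 0.095 for MDA-MB-468, 0.46 ± 0.093 for SUM149PT and 0.27 ± 0.093 for HCC38 (edgeR adjusted p = 0.0011, 0.0014 and 0.042), with no difference between lines shown (edgeR adjusted p = 0.46). The NFKBIA call in HCC38 was lost without HCC38 LNA NS replicate 2 or HCC38 knock-down replicate 2, and with no filter on low counts or a separate fit of each line. NFKBIE (chr6:44225903-44233525, minus strand) encodes IκBε. In MDA-MB-468, NFKBIE stood at 34.9 and 35.3 CPM after knock-down, against 24.6 and 29.1 CPM with LNA NS. SUM149PT had 64.3 and 68.96 CPM after knock-down, against 48.9 and 52.2 CPM with LNA NS. In HCC38 the NFKBIE levels were 20.7 and 20.5 CPM after knock-down, against 18.8 and 18.02 CPM with LNA NS. Knock-down was higher in each line, by little in HCC38. NFKBIE log2 fold changes were 0.39 ± 0.10 for MDA-MB-468, 0.40 ± 0.10 for SUM149PT and 0.16 ± 0.11 for HCC38 (edgeR adjusted p = 0.0062, 0.0072 and 0.29). The NFKBIE call in MDA-MB-468 was lost without MDA-MB-468 LNA NS replicate 1. NFKBIE passed the test in HCC38 with upper-quartile normalization.

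NFKBIZ (chr3:101546835-101579866, plus strand) encodes IκBζ, a nuclear IκB protein that helps to switch on later targets including IL6. In MDA-MB-468, NFKBIZ stood at 110.5 and 116 CPM after knock-down, against 67.7 and 83.1 CPM with LNA NS. SUM149PT had 64.7 and 68.2 CPM after knock-down, against 53.7 and 43.7 CPM with LNA NS. In HCC38 the NFKBIZ levels were 18.1 and 17.8 CPM after knock-down, against 7.30 and 9.17 CPM with LNA NS. The groups were apart in each line, and HCC38, the line with the lowest level, had the largest relative rise. NFKBIZ log2 fold changes were 0.59 ± 0.13 for MDA-MB-468, 0.45 ± 0.13 for SUM149PT and 1.12 ± 0.14 for HCC38 (edgeR adjusted p = 0.0012, 0.014 and 2.1e-05), and they differed between lines (edgeR adjusted p = 0.033). The NFKBIZ call in SUM149PT was lost without SUM149PT LNA NS replicate 2. The NFKBIZ call for the difference between lines was lost without HCC38 LNA NS replicate 1. BCL3 (chr19:45250962-45263301, plus strand), another nuclear IκB protein that works with p50 and p52, went the other way in 1 line. In MDA-MB-468, BCL3 stood at 56.2 and 48.1 CPM after knock-down, against 103 and 100.2 CPM with LNA NS. SUM149PT had 39.3 and 43.4 CPM after knock-down, against 37.4 and 40.6 CPM with LNA NS. In HCC38 the BCL3 levels were 34.4 and 41.7 CPM after knock-down, against 33.3 and 34.5 CPM with LNA NS. In MDA-MB-468 both knock-down libraries were below both LNA NS libraries, and in the other lines the groups overlapped. BCL3 log2 fold changes were −0.96 ± 0.11 for MDA-MB-468, 0.082 ± 0.11 for SUM149PT and 0.17 ± 0.11 for HCC38 (edgeR adjusted p = 4.3e-06, 0.64 and 0.31), and they differed between lines (edgeR adjusted p = 0.00028). BCL3 passed the test in HCC38 with upper-quartile normalization. The BCL3 call on average over the lines was lost with upper-quartile normalization.

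TNIP1 (chr5:150409506-150473138, minus strand) encodes ABIN-1, which binds A20. In MDA-MB-468, TNIP1 stood at 135 and 119.5 CPM after knock-down, against 186 and 197 CPM with LNA NS. SUM149PT had 294 and 314 CPM after knock-down, against 282 and 281 CPM with LNA NS. In HCC38 the TNIP1 levels were 141 and 143 CPM after knock-down, against 146 and 154 CPM with LNA NS. It was lower after knock-down in MDA-MB-468, and the small distances in the other lines did not pass the test. TNIP1 log2 fold changes were −0.59 ± 0.085 for MDA-MB-468, 0.11 ± 0.085 for SUM149PT and −0.08 ± 0.085 for HCC38 (edgeR adjusted p = 3.6e-05, 0.36 and 0.53), and they differed between lines (edgeR adjusted p = 0.002). The TNIP1 call on average over the lines was lost with upper-quartile normalization.

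CYLD (chr16:50775961-50835846, plus strand) is a deubiquitinase that removes the chains on which the IκB kinase complex assembles. In MDA-MB-468, CYLD stood at 55.4 and 64.9 CPM after knock-down, against 39.1 and 36.4 CPM with LNA NS. SUM149PT had 70.6 and 69.1 CPM after knock-down, against 53.98 and 46.3 CPM with LNA NS. In HCC38 the CYLD levels were 42.6 and 36.5 CPM after knock-down, against 33.4 and 31.4 CPM with LNA NS. The groups did not overlap, and the distance was smallest in HCC38. CYLD log2 fold changes were 0.67 ± 0.11 for MDA-MB-468, 0.48 ± 0.11 for SUM149PT and 0.29 ± 0.11 for HCC38 (edgeR adjusted p = 0.00017, 0.0045 and 0.077). The CYLD call in HCC38 was lost without MDA-MB-468 LNA NS replicates 1 or 2, SUM149PT knock-down replicates 1 or 2, HCC38 LNA NS replicates 1 or 2 or HCC38 knock-down replicate 1, and with no filter on low counts, a block on replicate number or a separate fit of each line. ZC3H12A (chr1:37940181-37949978, plus strand) encodes Regnase-1, an RNase that degrades mRNAs such as IL6. In MDA-MB-468, ZC3H12A stood at 85.4 and 82.7 CPM after knock-down, against 63.1 and 70.4 CPM with LNA NS. SUM149PT had 132 and 146 CPM after knock-down, against 113 and 99.6 CPM with LNA NS. In HCC38 the ZC3H12A levels were 49.4 and 51.2 CPM after knock-down, against 33.1 and 38.1 CPM with LNA NS. The groups did not overlap in any line. ZC3H12A log2 fold changes were 0.33 ± 0.10 for MDA-MB-468, 0.39 ± 0.10 for SUM149PT and 0.50 ± 0.10 for HCC38 (edgeR adjusted p = 0.015, 0.0082 and 0.002). The ZC3H12A call in MDA-MB-468 was lost without MDA-MB-468 LNA NS replicate 1. The ZC3H12A call in SUM149PT was lost without SUM149PT LNA NS replicate 2.

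Among the 6 adaptors, kinases and survival proteins of TNF receptor signaling, 3 rose and 1 fell in MDA-MB-468, 4 rose in SUM149PT and 2 rose in HCC38. The shares of all tested genes in these lines were 24.9%, 20% and 15.5% risen and 25.7%, 18% and 18.4% fallen. With 6 genes, these counts are small. RIPK1 (chr6:3064058-3115421, plus strand), the kinase that links the TNF receptor to NF-κB or to cell death, rose in all lines. In MDA-MB-468, RIPK1 stood at 131 and 137 CPM after knock-down, against 73.9 and 73.5 CPM with LNA NS. SUM149PT had 97.6 and 93.5 CPM after knock-down, against 49.5 and 49.2 CPM with LNA NS. In HCC38 the RIPK1 levels were 90.8 and 88.2 CPM after knock-down, against 60.9 and 63.6 CPM with LNA NS. The groups did not overlap in any line. RIPK1 log2 fold changes were 0.86 ± 0.083 for MDA-MB-468, 0.95 ± 0.084 for SUM149PT and 0.52 ± 0.083 for HCC38 (edgeR adjusted p = 5.7e-07, 7.5e-07 and 0.00021), and they differed between lines (edgeR adjusted p = 0.029). The RIPK1 call for the difference between lines was lost without HCC38 LNA NS replicate 2 or HCC38 knock-down replicate 2. BIRC3 (chr11:102188215-102210134, plus strand), the ubiquitin ligase cIAP2 whose promoter is printed above, also rose in all lines. In MDA-MB-468, BIRC3 stood at 28.97 and 30.4 CPM after knock-down, against 20.4 and 17.4 CPM with LNA NS. SUM149PT had 246 and 232 CPM after knock-down, against 111 and 102 CPM with LNA NS. In HCC38 the BIRC3 levels were 174 and 168 CPM after knock-down, against 139 and 117 CPM with LNA NS. The groups were apart in each line, and in relative terms farthest in SUM149PT. BIRC3 log2 fold changes were 0.65 ± 0.11 for MDA-MB-468, 1.17 ± 0.10 for SUM149PT and 0.42 ± 0.10 for HCC38 (edgeR adjusted p = 0.00013, 7.6e-07 and 0.0059), and they differed between lines (edgeR adjusted p = 0.0045).

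BIRC2 (chr11:102217942-102249401, plus strand) encodes cIAP1, the paralog of cIAP2. In MDA-MB-468, BIRC2 stood at 99.5 and 113 CPM after knock-down, against 83.4 and 69.8 CPM with LNA NS. SUM149PT had 74.4 and 62.8 CPM after knock-down, against 62.2 and 63.9 CPM with LNA NS. In HCC38 the BIRC2 levels were 80.04 and 71.2 CPM after knock-down, against 102 and 78.9 CPM with LNA NS. The groups overlapped in SUM149PT and HCC38 and were apart in MDA-MB-468. BIRC2 log2 fold changes were 0.47 ± 0.13 for MDA-MB-468, 0.12 ± 0.13 for SUM149PT and −0.26 ± 0.13 for HCC38 (edgeR adjusted p = 0.0077, 0.53 and 0.17), and they differed between lines (edgeR adjusted p = 0.026). The BIRC2 call in MDA-MB-468 was lost without MDA-MB-468 LNA NS replicate 2. BIRC2 passed the test in HCC38 without HCC38 LNA NS replicate 2, and with no filter on low counts. BIRC2 passed the test on average over the lines without HCC38 LNA NS replicate 1, and with upper-quartile normalization. The BIRC2 call for the difference between lines was lost without MDA-MB-468 LNA NS replicate 2, MDA-MB-468 knock-down replicate 2 or HCC38 LNA NS replicate 1. MAP3K8 (chr10:30722950-30750762, plus strand) encodes TPL2, a kinase upstream of ERK that p105 holds inactive. In MDA-MB-468, MAP3K8 stood at 15.8 and 16.3 CPM after knock-down, against 14.5 and 15.02 CPM with LNA NS. SUM149PT had 17.5 and 18.96 CPM after knock-down, against 11.8 and 10.5 CPM with LNA NS. In HCC38 the MAP3K8 levels were 5.27 and 6.11 CPM after knock-down, against 6.23 and 6.43 CPM with LNA NS. The groups were apart in each line, with knock-down the lower one in HCC38, and the test was passed in SUM149PT. MAP3K8 log2 fold changes were 0.12 ± 0.13 for MDA-MB-468, 0.71 ± 0.13 for SUM149PT and −0.16 ± 0.14 for HCC38 (edgeR adjusted p = 0.48, 0.00056 and 0.43), and they differed between lines (edgeR adjusted p = 0.0084).

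TRAF1 (chr9:123664671-123691451, minus strand), an adaptor of TNF receptors, rose in one line and fell in another. In MDA-MB-468, TRAF1 stood at 1.68 and 1.34 CPM after knock-down, against 1.73 and 2.74 CPM with LNA NS. SUM149PT had 27.8 and 28.4 CPM after knock-down, against 18.9 and 17.9 CPM with LNA NS. In HCC38 the TRAF1 levels were 34.3 and 33.1 CPM after knock-down, against 25.7 and 28.9 CPM with LNA NS. The groups were apart in each line, narrowly in MDA-MB-468, where the level was far below that of the other lines. TRAF1 log2 fold changes were −0.56 ± 0.21 for MDA-MB-468, 0.61 ± 0.14 for SUM149PT and 0.30 ± 0.14 for HCC38 (edgeR adjusted p = 0.038, 0.004 and 0.12), and they differed between lines (edgeR adjusted p = 0.01). The TRAF1 call in MDA-MB-468 was lost without MDA-MB-468 LNA NS replicate 2 or MDA-MB-468 knock-down replicate 2, and with upper-quartile normalization or a separate fit of each line. TRAF1 passed the test in HCC38 without MDA-MB-468 LNA NS replicates 1 or 2, and with DESeq2 size factors, upper-quartile normalization, a filter at 1 CPM in 2 libraries, DESeq2 or a separate fit of each line. TRAF1 passed the test on average over the lines without MDA-MB-468 LNA NS replicate 2, and with upper-quartile normalization. CFLAR, which encodes the caspase-8 inhibitor FLIP, passed in no line, with levels between 40.3 and 48.99 CPM in knock-down libraries and between 41.2 and 59.1 CPM in LNA NS libraries. CFLAR passed the test in HCC38 without HCC38 LNA NS replicate 1.

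**Figure D3:**
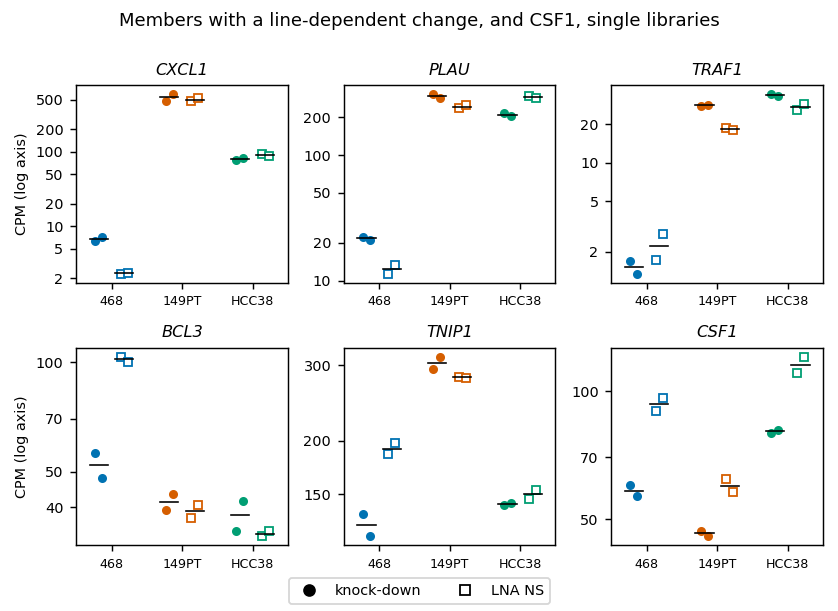
CPM of CXCL1, PLAU, TRAF1, BCL3, TNIP1 and CSF1 in single libraries, on a log axis, with knock-down as filled circles left of LNA NS as open squares in each line and the mean of 2 libraries as a bar. PLAU is higher after knock-down in MDA-MB-468 and SUM149PT and lower in HCC38, with log2 fold changes of 0.82, 0.27 and −0.47, and CSF1 is lower in every line.

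Among the 14 cytokines and chemokines, CXCL8, IL6 and TNF rose in all 3 lines. CXCL8 (chr4:74606236-74609433, plus strand), the neutrophil chemokine interleukin-8, had the largest rise of the 3 in MDA-MB-468. In MDA-MB-468, CXCL8 stood at 27.3 and 39.95 CPM after knock-down, against 4.42 and 5.24 CPM with LNA NS. SUM149PT had 325 and 386 CPM after knock-down, against 185 and 191 CPM with LNA NS. In HCC38 the CXCL8 levels were 25.5 and 23.3 CPM after knock-down, against 15.8 and 12.7 CPM with LNA NS. The levels of SUM149PT were the highest in both treatments, and the groups did not overlap in any line. CXCL8 log2 fold changes were 2.80 ± 0.18 for MDA-MB-468, 0.92 ± 0.15 for SUM149PT and 0.78 ± 0.16 for HCC38 (edgeR adjusted p = 7.4e-09, 0.00022 and 0.0016), and they differed between lines (edgeR adjusted p = 6.1e-05). IL6 (chr7:22765503-22771621, plus strand), the cytokine that activates STAT3 through gp130, had its κB match printed above. In MDA-MB-468, IL6 stood at 4.12 and 5.06 CPM after knock-down, against 1.34 and 1.35 CPM with LNA NS. SUM149PT had 19.2 and 19.1 CPM after knock-down, against 13.2 and 14.8 CPM with LNA NS. In HCC38 the IL6 levels were 24.5 and 25.9 CPM after knock-down, against 9.92 and 9.68 CPM with LNA NS. Knock-down was higher throughout, and the groups did not overlap. IL6 log2 fold changes were 1.76 ± 0.17 for MDA-MB-468, 0.45 ± 0.13 for SUM149PT and 1.36 ± 0.13 for HCC38 (edgeR adjusted p = 5.4e-07, 0.013 and 1.6e-06), and they differed between lines (edgeR adjusted p = 0.00093). The IL6 call in SUM149PT was lost without SUM149PT LNA NS replicate 1.

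TNF (chr6:31543342-31546113, plus strand) is both a target and an activator of NF-κB. In MDA-MB-468, TNF stood at 1.98 and 1.53 CPM after knock-down, against 0.576 and 0.452 CPM with LNA NS. SUM149PT had 23.4 and 24.99 CPM after knock-down, against 9.08 and 8.89 CPM with LNA NS. In HCC38 the TNF levels were 3.60 and 3.61 CPM after knock-down, against 2.75 and 2.23 CPM with LNA NS. Knock-down was the higher group in each line. The MDA-MB-468 levels rest on few reads, 151 counts over both knock-down libraries and 38 over both LNA NS libraries. TNF log2 fold changes were 1.77 ± 0.25 for MDA-MB-468, 1.43 ± 0.15 for SUM149PT and 0.53 ± 0.18 for HCC38 (edgeR adjusted p = 2.5e-05, 5.6e-06 and 0.034), and they differed between lines (edgeR adjusted p = 0.01). The TNF call in HCC38 was lost without HCC38 knock-down replicates 1 or 2 or HCC38 LNA NS replicate 2.

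The chemokines CXCL1, CXCL2 and CXCL3 attract neutrophils and are near-identical neighbors on chromosome 4, so reads could be split between them or left uncounted, and their values are uncertain. CXCL1 (chr4:74735110-74737025, plus strand) rose in MDA-MB-468. In MDA-MB-468, CXCL1 stood at 6.40 and 7.30 CPM after knock-down, against 2.30 and 2.39 CPM with LNA NS. SUM149PT had 483 and 588 CPM after knock-down, against 480.2 and 524 CPM with LNA NS. In HCC38 the CXCL1 levels were 77.2 and 81.99 CPM after knock-down, against 94.7 and 88.4 CPM with LNA NS. Its level in SUM149PT was far above the others with overlapping groups, and in HCC38 knock-down was the lower group without passing the test. CXCL1 log2 fold changes were 1.54 ± 0.14 for MDA-MB-468, 0.092 ± 0.10 for SUM149PT and −0.20 ± 0.10 for HCC38 (edgeR adjusted p = 2.6e-07, 0.54 and 0.16), and they differed between lines (edgeR adjusted p = 3.1e-05). CXCL3 (chr4:74902306-74904524, minus strand) also rose in MDA-MB-468, at lower levels. In MDA-MB-468, CXCL3 stood at 0.782 and 0.706 CPM after knock-down, against 0.2195 and 0.239 CPM with LNA NS. SUM149PT had 46 and 54.9 CPM after knock-down, against 41.8 and 44.4 CPM with LNA NS. In HCC38 the CXCL3 levels were 2.42 and 2.56 CPM after knock-down, against 2.69 and 2.48 CPM with LNA NS. The groups were apart in MDA-MB-468 and SUM149PT and overlapped in HCC38. In MDA-MB-468 it had 64 counts over the knock-down and 17 over the LNA NS libraries. CXCL3 log2 fold changes were 1.69 ± 0.30 for MDA-MB-468, 0.22 ± 0.12 for SUM149PT and −0.057 ± 0.15 for HCC38 (edgeR adjusted p = 0.00026, 0.16 and 0.83), and they differed between lines (edgeR adjusted p = 0.0056). CXCL3 passed the test in SUM149PT with upper-quartile normalization. CXCL2 passed in no line, at 0.19 ± 0.27 on the log2 scale for MDA-MB-468, −0.20 ± 0.19 for SUM149PT and −0.36 ± 0.21 for HCC38.

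CCL20 (chr2:228670455-228682280, plus strand), the ligand of CCR6, had the largest fold change in 1 line of all members that passed, in MDA-MB-468, where its LNA NS level was very low. In MDA-MB-468, CCL20 stood at 0.621 and 2.52 CPM after knock-down, against 0.165 and 0.106 CPM with LNA NS. SUM149PT had 23.8 and 22.1 CPM after knock-down, against 21.2 and 27.2 CPM with LNA NS. In HCC38 the CCL20 levels were 1.23 and 1.89 CPM after knock-down, against 2.86 and 2.58 CPM with LNA NS. The 2 knock-down libraries of MDA-MB-468 were far from each other, and both were above LNA NS. CCL20 log2 fold changes were 3.50 ± 0.66 for MDA-MB-468, −0.075 ± 0.29 for SUM149PT and −0.84 ± 0.38 for HCC38 (edgeR adjusted p = 0.00042, 0.9 and 0.12), and they differed between lines (edgeR adjusted p = 0.0028). Over the fits that left out 1 library, the MDA-MB-468 value lay between 2.18 and 4.18. CCL20 passed the test in HCC38 without MDA-MB-468 knock-down replicates 1 or 2, and with no filter on low counts or a separate fit of each line. The CCL20 call on average over the lines was lost without MDA-MB-468 knock-down replicate 2.

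CSF1 (chr1:110452864-110473614, plus strand), the growth factor of macrophages, was the cytokine that fell in all lines. In MDA-MB-468, CSF1 stood at 60.1 and 56.8 CPM after knock-down, against 90.03 and 96.4 CPM with LNA NS. SUM149PT had 47.1 and 45.6 CPM after knock-down, against 62.1 and 57.9 CPM with LNA NS. In HCC38 the CSF1 levels were 79.9 and 81.2 CPM after knock-down, against 111 and 120.4 CPM with LNA NS. Every knock-down library was below every LNA NS library of its line. CSF1 log2 fold changes were −0.67 ± 0.089 for MDA-MB-468, −0.37 ± 0.09 for SUM149PT and −0.52 ± 0.089 for HCC38 (edgeR adjusted p = 1.6e-05, 0.005 and 0.00042), with no difference between lines shown (edgeR adjusted p = 0.2). CSF2 (chr5:131409482-131411863, plus strand), which encodes GM-CSF, rose in MDA-MB-468 and SUM149PT. In MDA-MB-468, CSF2 stood at 0.138 and 0.212 CPM after knock-down, against 0.0823 and 0 CPM with LNA NS. SUM149PT had 9.28 and 12.1 CPM after knock-down, against 6.03 and 7.66 CPM with LNA NS. In HCC38 the CSF2 levels were 3.51 and 2.94 CPM after knock-down, against 2.88 and 2.33 CPM with LNA NS. Knock-down was the higher group in each line. The MDA-MB-468 values rest on 15 counts in knock-down and 3 counts in LNA NS libraries, a ratio of 4.31 with an exact 95% interval between 1.22 and 23.2 for counting error only. CSF2 log2 fold changes were 2.03 ± 0.84 for MDA-MB-468, 0.64 ± 0.23 for SUM149PT and 0.31 ± 0.25 for HCC38 (edgeR adjusted p = 0.062, 0.044 and 0.4). The CSF2 call in MDA-MB-468 was lost without MDA-MB-468 LNA NS replicate 2 or MDA-MB-468 knock-down replicate 2, and with a separate fit of each line. The CSF2 call in SUM149PT was lost without SUM149PT LNA NS replicate 1 or SUM149PT knock-down replicate 2.

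The interleukin-1 genes encode early inflammatory cytokines. IL1A fell in SUM149PT, to 22.1 and 20.6 CPM after knock-down, against 30.5 and 29.1 CPM with LNA NS, a log2 fold change of −0.48 ± 0.17 (edgeR adjusted p = 0.049). The IL1A call in SUM149PT was lost without SUM149PT LNA NS replicates 1 or 2 or SUM149PT knock-down replicates 1 or 2. In MDA-MB-468 IL1A had 3 counts over the knock-down libraries and 0 with LNA NS, at which no fold can be given. IL1B, LIF, CCL2 and CSF3 passed in no line. LIF, a cytokine of the IL6 family, was between 123.2 and 182 CPM in knock-down and between 122 and 168 CPM in LNA NS libraries. CSF3 (chr17:38171614-38174066, plus strand), which encodes G-CSF, had 0.069 and 0.0235 CPM after knock-down, against 0 and 0 CPM with LNA NS in MDA-MB-468, which is 4 counts and 0 counts. SUM149PT had 19.7 and 22.3 CPM after knock-down, against 22.6 and 23.8 CPM with LNA NS, and HCC38 had 0.0732 and 0.431 CPM after knock-down, against 0.0874 and 0.0819 CPM with LNA NS. The mean contrast of CSF3 passed (edgeR adjusted p = 0.073), and its MDA-MB-468 and HCC38 libraries held few reads. The CSF3 call on average over the lines was lost without MDA-MB-468 LNA NS replicates 1 or 2, MDA-MB-468 knock-down replicate 1 or HCC38 knock-down replicate 2. CSF3 passed the test in HCC38 without HCC38 knock-down replicate 1, and with DESeq2. CCL2, the ligand of CCR2, had 0 counts in all SUM149PT libraries, and between 0.0706 and 1.03 CPM after knock-down and 0.133 and 1.68 CPM with LNA NS in the other lines.

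Of the 10 other targets, 6 rose in MDA-MB-468, 8 rose in SUM149PT, and 4 rose and 1 fell in HCC38. Over all tested genes, 24.9%, 20% and 15.5% rose and 25.7%, 18% and 18.4% fell, in this order of the lines. ICAM1 (chr19:10381769-10397291, plus strand), the adhesion molecule that binds leukocyte integrins, rose in all lines. In MDA-MB-468, ICAM1 stood at 146 and 135 CPM after knock-down, against 58.2 and 71.1 CPM with LNA NS. SUM149PT had 228 and 218 CPM after knock-down, against 158 and 139 CPM with LNA NS. In HCC38 the ICAM1 levels were 33.9 and 33.5 CPM after knock-down, against 23.6 and 28.3 CPM with LNA NS. The groups were apart everywhere, most in MDA-MB-468. ICAM1 log2 fold changes were 1.12 ± 0.11 for MDA-MB-468, 0.59 ± 0.11 for SUM149PT and 0.37 ± 0.11 for HCC38 (edgeR adjusted p = 9.6e-07, 0.00079 and 0.025), and they differed between lines (edgeR adjusted p = 0.0084). The ICAM1 call in HCC38 was lost without HCC38 LNA NS replicate 1 or HCC38 knock-down replicate 1. TNFAIP2 (chr14:103587813-103603776, plus strand), a TNF-induced gene linked to membrane nanotubes, rose in MDA-MB-468 and SUM149PT. In MDA-MB-468, TNFAIP2 stood at 388 and 355 CPM after knock-down, against 251 and 267 CPM with LNA NS. SUM149PT had 282 and 302 CPM after knock-down, against 174 and 163 CPM with LNA NS. In HCC38 the TNFAIP2 levels were 207 and 196 CPM after knock-down, against 209.8 and 234 CPM with LNA NS. In HCC38 knock-down was the lower group and the test was not passed. TNFAIP2 log2 fold changes were 0.52 ± 0.089 for MDA-MB-468, 0.79 ± 0.089 for SUM149PT and −0.14 ± 0.089 for HCC38 (edgeR adjusted p = 0.00017, 7.9e-06 and 0.27), and they differed between lines (edgeR adjusted p = 0.00036).

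PLAU and PLAUR encode urokinase, a secreted protease, and its receptor. PLAU (chr10:75668935-75677254, plus strand) had opposite signs. In MDA-MB-468, PLAU stood at 22.4 and 21.02 CPM after knock-down, against 11.3 and 13.3 CPM with LNA NS. SUM149PT had 304 and 283 CPM after knock-down, against 235 and 252 CPM with LNA NS. In HCC38 the PLAU levels were 215 and 206 CPM after knock-down, against 298 and 285 CPM with LNA NS. The groups did not overlap in any line, with knock-down on top in MDA-MB-468 and SUM149PT and below in HCC38. PLAU log2 fold changes were 0.82 ± 0.099 for MDA-MB-468, 0.27 ± 0.09 for SUM149PT and −0.47 ± 0.09 for HCC38 (edgeR adjusted p = 5.7e-06, 0.032 and 0.0011), and they differed between lines (edgeR adjusted p = 5.1e-05). The PLAU call in SUM149PT was lost without SUM149PT LNA NS replicate 1 or SUM149PT knock-down replicate 1. PLAUR (chr19:44150247-44174699, minus strand) rose in MDA-MB-468 and SUM149PT. In MDA-MB-468, PLAUR stood at 102 and 106 CPM after knock-down, against 67.3 and 69.3 CPM with LNA NS. SUM149PT had 323 and 328 CPM after knock-down, against 201 and 219 CPM with LNA NS. In HCC38 the PLAUR levels were 113 and 122 CPM after knock-down, against 111 and 108 CPM with LNA NS. Knock-down was the higher group in each line, by little in HCC38. PLAUR log2 fold changes were 0.61 ± 0.083 for MDA-MB-468, 0.63 ± 0.082 for SUM149PT and 0.11 ± 0.082 for HCC38 (edgeR adjusted p = 2.0e-05, 3.3e-05 and 0.38), and they differed between lines (edgeR adjusted p = 0.0059). PLAUR passed the test in HCC38 with upper-quartile normalization.

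CD83 and GADD45B rose in MDA-MB-468 and SUM149PT. CD83 (chr6:14117487-14137149, plus strand) is a surface marker of mature dendritic cells. In MDA-MB-468, CD83 stood at 10.4 and 11.5 CPM after knock-down, against 5.87 and 5.18 CPM with LNA NS. SUM149PT had 19.6 and 17.9 CPM after knock-down, against 11.4 and 12.7 CPM with LNA NS. In HCC38 the CD83 levels were 16.7 and 17.8 CPM after knock-down, against 21.4 and 16.7 CPM with LNA NS. In HCC38 the groups overlapped. CD83 log2 fold changes were 0.98 ± 0.15 for MDA-MB-468, 0.64 ± 0.14 for SUM149PT and −0.14 ± 0.14 for HCC38 (edgeR adjusted p = 6.3e-05, 0.0028 and 0.5), and they differed between lines (edgeR adjusted p = 0.0028). GADD45B (chr19:2476120-2478257, plus strand) is a stress-response protein that restrains JNK signaling. In MDA-MB-468, GADD45B stood at 86.2 and 102 CPM after knock-down, against 61.5 and 60.6 CPM with LNA NS. SUM149PT had 52.2 and 63.2 CPM after knock-down, against 25.5 and 29.7 CPM with LNA NS. In HCC38 the GADD45B levels were 65.8 and 70.4 CPM after knock-down, against 61.3 and 54.9 CPM with LNA NS. The groups did not overlap, and in relative terms SUM149PT had the widest distance. GADD45B log2 fold changes were 0.63 ± 0.12 for MDA-MB-468, 1.06 ± 0.12 for SUM149PT and 0.23 ± 0.12 for HCC38 (edgeR adjusted p = 0.00042, 9.6e-06 and 0.17), and they differed between lines (edgeR adjusted p = 0.0073). GADD45B passed the test in HCC38 with upper-quartile normalization or a filter at 1 CPM in 2 libraries.

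IRF1 (chr5:131776132-131844411, minus strand) is a transcription factor of the interferon response. In MDA-MB-468, IRF1 stood at 86.02 and 80.8 CPM after knock-down, against 72.2 and 77.1 CPM with LNA NS. SUM149PT had 40.8 and 40.7 CPM after knock-down, against 26.97 and 30.03 CPM with LNA NS. In HCC38 the IRF1 levels were 84.1 and 91.2 CPM after knock-down, against 87.4 and 84.2 CPM with LNA NS. The test was passed in SUM149PT, and in HCC38 the groups overlapped. IRF1 log2 fold changes were 0.16 ± 0.092 for MDA-MB-468, 0.52 ± 0.095 for SUM149PT and 0.031 ± 0.092 for HCC38 (edgeR adjusted p = 0.18, 0.00066 and 0.85), and they differed between lines (edgeR adjusted p = 0.032). IRF1 passed the test in MDA-MB-468 with upper-quartile normalization or a filter at 1 CPM in 2 libraries. The IRF1 call for the difference between lines was lost without SUM149PT LNA NS replicate 1. IER3 (chr6:30710976-30712325, minus strand), an immediate-early survival gene, had the highest level per length of all members in MDA-MB-468. In MDA-MB-468, IER3 stood at 543 and 616 CPM after knock-down, against 531 and 497 CPM with LNA NS. SUM149PT had 279.7 and 309 CPM after knock-down, against 270.2 and 271 CPM with LNA NS. In HCC38 the IER3 levels were 230.4 and 224 CPM after knock-down, against 165 and 161 CPM with LNA NS. Knock-down was the higher group in each line, and the test was passed in HCC38. IER3 log2 fold changes were 0.17 ± 0.086 for MDA-MB-468, 0.12 ± 0.086 for SUM149PT and 0.47 ± 0.087 for HCC38 (edgeR adjusted p = 0.12, 0.32 and 0.00074), and they differed between lines (edgeR adjusted p = 0.079). IER3 passed the test in MDA-MB-468 without MDA-MB-468 knock-down replicate 1, and with upper-quartile normalization or a filter at 1 CPM in 2 libraries. The IER3 call for the difference between lines was lost without MDA-MB-468 LNA NS replicates 1 or 2, SUM149PT LNA NS replicates 1 or 2, SUM149PT knock-down replicate 1, HCC38 LNA NS replicates 1 or 2 or HCC38 knock-down replicates 1 or 2, and with no filter on low counts. A block on replicate number lost it too.

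PTGS2 and MMP9 were nearly or wholly absent from MDA-MB-468. PTGS2 (chr1:186640923-186650054, minus strand), the cyclooxygenase COX-2, had 0 counts in all 4 libraries of that line, which allows up to 0.0349 CPM after knock-down and 0.0405 CPM with LNA NS for counting error only. SUM149PT had 49.9 and 44.1 CPM after knock-down, against 38.99 and 33.4 CPM with LNA NS. In HCC38 it had 5.76 and 5.52 CPM after knock-down, against 2.82 and 3.40 CPM with LNA NS. It rose in both, with log2 fold changes of 0.38 ± 0.13 and 0.86 ± 0.16 (edgeR adjusted p = 0.043 and 0.0011). The PTGS2 call in SUM149PT was lost without SUM149PT knock-down replicate 1 or SUM149PT LNA NS replicate 2. MMP9, a secreted gelatinase, rose in HCC38, to 42.5 and 38.8 CPM after knock-down, against 32.97 and 34.3 CPM with LNA NS, a log2 fold change of 0.27 ± 0.10 (edgeR adjusted p = 0.062). The MMP9 call in HCC38 was lost without HCC38 LNA NS replicates 1 or 2 or HCC38 knock-down replicate 1, and with no filter on low counts, a block on replicate number or a separate fit of each line.

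Other genes of the pathway were counted by role as well. Of 14 receptors, 4 rose and 2 fell on average over the lines, where 28.4% of all tested genes rose and 26.5% fell, so that the risen receptors were at about the general share. Named by the smallest adjusted p, TNFRSF1A, the main TNF receptor, fell (log2 fold change −0.52 ± 0.05), TLR2, a receptor for bacterial lipoproteins, rose (1.13 ± 0.11), IL1RAP, the co-receptor of interleukin-1, fell (−0.82 ± 0.084) and TNFRSF12A, the receptor of TWEAK, rose (0.37 ± 0.049). TNFRSF1A and IL1RAP fell in all 3 lines. Of 12 proximal adaptors and ligases, 4 rose and 6 fell on average, where 28.4% of all tested genes rose and 26.5% fell. The risen ones were again near the general share. TRAF3, which restrains the non-canonical branch, had a log2 fold change of −1.08 ± 0.075, TRAF2 one of −0.75 ± 0.064 and TRAF5 one of −0.74 ± 0.077, whereas TRAF6, the ligase downstream of interleukin-1 and Toll-like receptors, rose (0.71 ± 0.076). In MDA-MB-468, TRAF3 stood at 16.04 and 14.6 CPM after knock-down, against 30.8 and 36.97 CPM with LNA NS. SUM149PT had 36 and 38.1 CPM after knock-down, against 72.3 and 62.8 CPM with LNA NS, and HCC38 had 43 and 34.4 CPM after knock-down, against 84.3 and 96.03 CPM with LNA NS. TRAF3 fell in all 3 lines. The edgeR adjusted p-values of these 8 genes on average over the lines ran between 9.4e-09 and 1.1e-05.

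Of 10 kinases and IκB proteins outside the members, 9 were tested, of which 4 rose and 1 fell on average (28.4% and 26.5% of all tested genes). On average over the lines, CHUK, the kinase IKKα, rose (0.36 ± 0.063 on the log2 scale), as did TAB3 (0.51 ± 0.083), TAB2 (0.25 ± 0.068) and NFKBIB (0.25 ± 0.055), which encodes IκBβ. CHUK and TAB2 did not rise in HCC38, where 2 of the 9 rose and 0 fell (15.5% and 18.4% of all tested genes). TAB2 had 59.7 and 52.8 CPM after knock-down there, against 64.4 and 64.8 CPM with LNA NS. CHUK had 46.3 and 39.1 against 47.4 and 44.9 CPM. IKBKB, the kinase IKKβ, did not pass (0.046 ± 0.058, edgeR adjusted p = 0.56), and IKBKG was listed with 0 counts in all libraries. Whether this reflects absent RNA or the gene entry that was matched was not tested, as the annotation release counted is not known. Of 9 receptors for the cytokines, 7 were tested, of which 3 rose and 1 fell on average (28.4% and 26.5% of all tested genes). LIFR (0.92 ± 0.099) and IL6ST (0.69 ± 0.082), which encodes the gp130 chain shared by IL6 and LIF, rose. The other 2 that passed on average, CSF3R upward and CCR2 downward, passed in no single line. CSF3R, the receptor of G-CSF, had 8.93 and 7.23 CPM after knock-down, against 12.3 and 9.89 CPM with LNA NS in MDA-MB-468, which is the lower level after knock-down. Its average value rests on 8 counts after knock-down against 0 with LNA NS in SUM149PT, and on 29 against 18 counts in HCC38. CCR2 was under 1 CPM in every library. CXCR2 and CCR6, receptors of CXCL8 and CCL20, did not pass the filter on low counts.

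The lines were also compared without knock-down. With LNA NS, 29 members were higher and 12 lower in SUM149PT than in MDA-MB-468, against 33.2% and 35.3% of all tested genes. Between MDA-MB-468 and HCC38, 11 were higher and 26 lower in MDA-MB-468, against 33.7% and 37.7%. Between SUM149PT and HCC38, 24 were higher and 13 lower in SUM149PT, against 31.6% and 38%. Past 2-fold, 22 members were higher and 4 lower in SUM149PT than in MDA-MB-468 (19.3% and 21.3% of all tested genes), 5 higher and 19 lower in MDA-MB-468 than in HCC38 (19.8% and 23.9%), and 15 higher and 3 lower in SUM149PT than in HCC38 (16.8% and 23.3%). Of the 14 cytokines, 12 had their highest LNA NS mean in SUM149PT and 2 in HCC38. In MDA-MB-468, 8 of the 14 had LNA NS means below 1 CPM, while SUM149PT had 1 such gene and HCC38 had 3.

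CXCL1 shows the range, with 480.2 and 524 CPM in SUM149PT, 2.30 and 2.39 CPM in MDA-MB-468 and 94.7 and 88.4 CPM in HCC38, all with LNA NS. The log2 difference was 7.74 ± 0.14 for SUM149PT over MDA-MB-468 and −5.28 ± 0.13 for MDA-MB-468 over HCC38 (edgeR adjusted p = 1.5e-15 and 2.7e-14). IL1B had 26.4 and 26.3 CPM in SUM149PT, 0.137 and 0.106 CPM in MDA-MB-468 and 0.109 and 0.205 CPM in HCC38. It was thus expressed in SUM149PT and near 0 elsewhere. CSF3 and IL1A had 0 counts with LNA NS in MDA-MB-468 and averaged 23.2 and 29.8 CPM in SUM149PT, at least 572-fold and 735-fold higher when a floor of 3 counts over the group stands for 0. By the same floor, PTGS2 was at least 893-fold higher in SUM149PT than in MDA-MB-468, and at least 76.8-fold lower in MDA-MB-468 than in HCC38. Among the cytokines, CCL2 and CSF1 were the exceptions. CCL2 had 0 counts in SUM149PT and 1.46 and 1.68 CPM in HCC38. CSF1 had 62.1 and 57.9 CPM in SUM149PT and 110.6 and 120.4 CPM in HCC38.

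**Figure D4:**
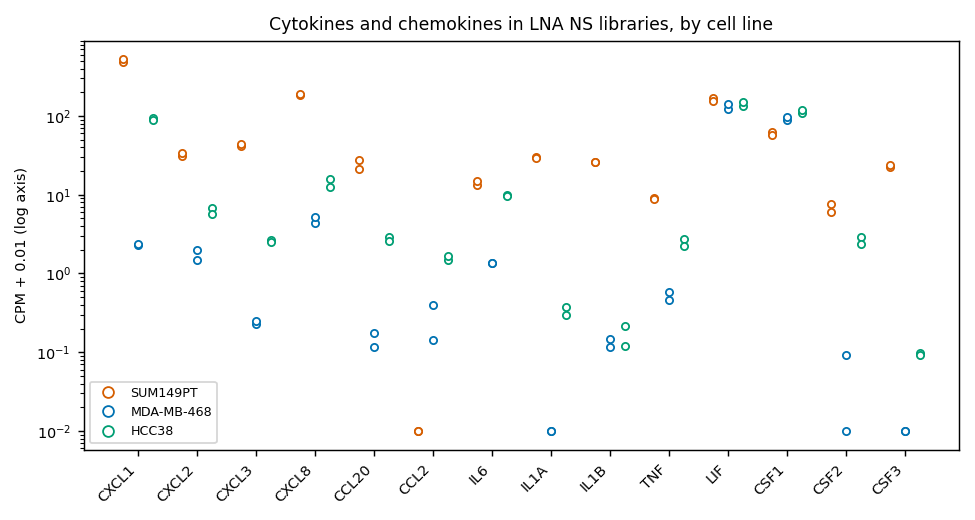
CPM plus 0.01 of the 14 cytokines and chemokines in the 2 LNA NS libraries of each line, on a log axis. SUM149PT is highest for 12 of the 14, and LIF and CSF1 are the 2 genes whose means differ by less than 2-fold between any of the lines.

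The 7 cytokines that rose in MDA-MB-468, CXCL1, CXCL3, CXCL8, CCL20, IL6, TNF and CSF2, each had their lowest LNA NS level in that line, and after knock-down each was still lower there than in the LNA NS libraries of SUM149PT. The rise and this order use the same LNA NS libraries. The low level was not particular to the cytokines that rose, as 12 of the 14 were higher in SUM149PT than in MDA-MB-468 with LNA NS. CXCL2, IL1A, IL1B, LIF and CSF3 also had their lowest LNA NS mean in MDA-MB-468 and did not pass there. Among intracellular members, TNFAIP3 had log2 differences of 2.46 ± 0.12 for SUM149PT over MDA-MB-468 and 0.90 ± 0.11 for SUM149PT over HCC38 (edgeR adjusted p = 3.4e-11 and 2.5e-06). NFKBIA had 2.03 ± 0.097 and 0.83 ± 0.094 in the same order (edgeR adjusted p = 3.7e-11 and 1.1e-06). BCL3 had its highest level in MDA-MB-468, by 1.59 ± 0.11 over HCC38 (edgeR adjusted p = 5.1e-09). RELA, present at high levels in each line, had log2 differences of −0.36 ± 0.083 for SUM149PT over MDA-MB-468 and 0.31 ± 0.082 for MDA-MB-468 over HCC38 (edgeR adjusted p = 0.0013 and 0.0035).

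Levels of different genes were compared only per kilobase of the canonical transcript. On that scale and with LNA NS, CXCL1 led in SUM149PT with 428 ± 26.4 CPM per kb (SD, n = 2), followed by IER3 with 219 and PLAUR with 154 CPM per kb. In MDA-MB-468 IER3 led with 416 ± 19.7 CPM per kb, followed by RELA with 77.4 and TNIP1 with 66.8 CPM per kb. IER3 also led in HCC38, with 132 ± 2.25 CPM per kb against 124 ± 3.78 CPM per kb for PLAU and 79.9 CPM per kb for PLAUR. The subunit REL was near the bottom in SUM149PT and HCC38, at 0.862 and 0.696 CPM per kb. Its canonical transcript has 11108 bases, and with a shorter transcript the level per kb would be higher. Of the 43 members, 14 overlap another counted gene on the other strand and 5 on the same strand, among them TNFAIP3, CYLD, IL6, ICAM1, PTGS2, PLAU and IRF1 with an antisense partner. The strand setting of the counting was not given in the sources used here, so reads of such pairs cannot be told apart.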

How the data were processed

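RNA-seq counts per gene were deposited by the authors for 12 libraries, 2 for each of 3 lines and 2 treatments. Per the labels and the methods, reads were aligned to GRCh37 (the methods name STAR and the submitters' processing notes TopHat2 2.0.13) and counted with HTSeq 0.6.0. Which annotation release was counted was not given in the sources used here. Summary entries of the deposited count files, between 40.8% and 53.7% of a library's total, name no gene and were left out. Genes were filtered with filterByExpr (minimum count 10, minimum total 15), scaled by TMM and fitted in edgeR 4.0.16 (R 4.3.3) by quasi-likelihood with 1 mean per group, giving 6 residual degrees of freedom. The contrasts set knock-down against LNA NS per line, then took their average, their difference between lines, and the lines with LNA NS. P-values were adjusted by Benjamini-Hochberg over the 21325 genes tested, and an adjusted p under 0.1 was called. Values are given per library for members called on average or between lines with at least 1 CPM in some group, and the other members are summarised. In other lists of the pathway, up to 4 genes with the smallest adjusted p are named. The members and lists were chosen with earlier results of these data known. Gene names, positions and lengths were taken from GENCODE on GRCh37. The procedure was tested on simulated data with the same dispersion (spread) for every gene and few genes changed. In the deposited data far more genes were called, so that test does not measure the error of the calls given here. Alternatives were DESeq2 1.42.0, other size factors and filters, separate fits of the lines, a replicate block, each library left out, stricter thresholds and removal of the gene length trend.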

Additional observations from a re-analysis of the deposited data

Results flagged for a closer look

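For 25 of the 43 members, edgeR's F test found that the change after knock-down was not the same in all 3 lines (adjusted p under 0.1), where 32.4% of all tested genes did. The distance between the largest and the smallest log2 fold change over the lines is given for each. Among the Rel subunits, this distance was 0.44 for NFKB2 and 1.04 for RELB. Among the inhibitors and IκB proteins it was 1.32 for TNFAIP3, 0.68 for NFKBIZ, 1.13 for BCL3 and 0.70 for TNIP1. For the adaptors, kinases and survival proteins it was 1.18 for TRAF1, 0.73 for BIRC2, 0.75 for BIRC3, 0.43 for RIPK1 and 0.87 for MAP3K8. For the cytokines and chemokines it was 1.74 for CXCL1, 1.74 for CXCL3, 2.02 for CXCL8, 4.34 for CCL20, 1.31 for IL6 and 1.23 for TNF. For the other targets it was 0.93 for TNFAIP2, 0.74 for ICAM1, 0.35 for IER3, 0.49 for IRF1, 1.29 for PLAU, 0.52 for PLAUR, 1.12 for CD83 and 0.83 for GADD45B. PLAU and TRAF1 rose in one line and fell in another. The TRAF1 fall was in MDA-MB-468 at low levels, and it was lost with upper-quartile normalization or a separate fit of each line. The IER3 result was lost in 9 of the 12 fits that each left out 1 library.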

How the results depend on the processing

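No value that passed its test changed direction under an alternative. Values that had not passed could change sign when 1 library was left out, such as REL in SUM149PT over MDA-MB-468 with LNA NS, between −0.30 and 0.69 on the log2 scale. With a change of more than 2-fold also required in edgeR, 10 members rose in MDA-MB-468, 5 in SUM149PT, 2 in HCC38 and 5 on average, 0 fell in any line or on average, and 0 rose or fell in all 3 lines. With LNA NS the same threshold left 4 members lower in SUM149PT than in MDA-MB-468, 5 higher in MDA-MB-468 than in HCC38, and 15 higher and 3 lower in SUM149PT than in HCC38. Upper-quartile normalization moved the all-gene median log2 fold change by 0.136 in MDA-MB-468, 0.0612 in SUM149PT, 0.125 in HCC38 and 0.105 on average, and gave member medians of 0.73, 0.45, 0.40 and 0.52 in that order, with 2 members fallen on average. Removing the gene length trend gave medians of 0.47, 0.32, 0.15 and 0.29. A filter at 1 CPM in 2 libraries gave a median of 0.64 in MDA-MB-468 and 0.33 in HCC38, and in HCC38 DESeq2 size factors and DESeq2 gave 0.30 each. In HCC38, 5 members fell with no filter on low counts. Leaving out 1 library at a time gave 1 to 2 members fallen in SUM149PT and medians of 0.31 to 0.44 in SUM149PT and 0.18 to 0.27 in HCC38. The causes of these shifts were not tested. Over all tested genes, little pairing by replicate number was seen, with correlations of −0.0052, 0.0971 and −0.118 in MDA-MB-468, SUM149PT and HCC38. Summary entries went with the number in SUM149PT, at 47.1% and 44.4% in replicates 1 and 53.7% and 53.2% in replicates 2. MDA-MB-468 had 50.5% and 51.4% against 47.3% and 45.5%. HCC38 knock-down replicate 2 had 53.0%, and the other HCC38 libraries 40.8% to 44.5%. Whether libraries of 1 number shared a handling step was not tested. With the replicate block 25 members rose in MDA-MB-468, 25 in SUM149PT, 15 in HCC38, 28 on average and 12 in all 3 lines, and 4 fell in HCC38. The block lost the calls of NFKB2 in SUM149PT and on average, CYLD and MMP9 in HCC38 and IER3 between lines, so that CYLD no longer rose in all 3 lines. With crossed numbers in HCC38, chosen after seeing the data, 20 members rose and 7 fell there, and 15 rose in all 3 lines. Depth limits CSF2, CSF3, CXCL3, CCL20 and TNF in MDA-MB-468, where few reads were counted.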
